A study of Mus musculus with 12 samples.

Results

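The genes described are the Rab GTPases, taken as every row of the expression table whose gene name is Rab followed by a number, with or without a letter or a further digit. The rule found 42 of 11911 genes. They were measured in RNA from neutrophils sorted out of the left ventricle of mouse hearts, in 6 libraries whose genotype label is control (numbered 2, 6, 7, 8, 11 and 12) and 6 whose genotype label is LOY (3, 4, 5, 10, 14 and 15). The series title concerns hematopoietic Y chromosome loss, and all 12 titles name a control bone marrow transplant while the treatment label reads control throughout. The groups are told apart by the genotype label and by the codes that close the titles, which end in C for control and in KO for LOY. Each library came from 800 cells that carried CD45.2, Ly6G and a red fluorescent protein and lacked CD64. The sources used here do not give the age and sex of the mice, how LOY was made, or whether each library came from its own mouse, so the p-values below measure the spread between libraries.

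Rab proteins are small GTPases that mark the membranes of the secretory and endocytic routes. An exchange factor loads a Rab with GTP on its membrane, the loaded form recruits effectors that move, tether or fuse vesicles, and a GTPase-activating protein ends the signal, after which the Rab can leave the membrane for the cytosol. In neutrophils these steps serve phagosome maturation, recycling of surface receptors and the release of granules, for which RAB27A is the best known member.

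Per kilobase of exon, the highest Rab genes here were Rab7 of the late endosome, Rab20 of the phagosome and Rab8a of plasma membrane traffic. The main test called none of the 33 members it tested, which does not show that their levels were equal between the genotypes. The unit throughout is the normalised read, which is a gene's read count after the authors scaled each library by a factor of its own. The test was limma on log2(normalised reads + 1), run on the 6951 genes that reached 10 normalised reads in at least 6 libraries, with p-values adjusted over all of them. It called 0 of the 33 Rab genes tested at an adjusted p under 0.05, where 2 of 6951 genes (0.0288%) were called, 1 of them lower in LOY (0.0144%). Its unadjusted p was under 0.05 for 3 Rab genes, Rab28, Rab24 and Rab5b, against a background of 4.37% of genes tested, and the smallest adjusted p of a Rab gene by limma was 0.997. DESeq2 on the recovered reads, with 303 of 9723 genes called (3.12%) and 117 of those lower in LOY (1.2%), called 1 of 37 Rab genes, Rab4a, which was lower in LOY and whose reads came almost wholly from 2 control libraries. Its unadjusted p was under 0.05 for that Rab gene alone, beside 10.1% of all genes with a DESeq2 p. In bulk samples, fewer cells of a type and less RNA per cell cannot be told apart.

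Members of the Rab5, Rab1 and Rab4 families share stretches of coding sequence, and the printed bases show where relatives differ. The stretches printed here, 60 coding bases each from the GENCODE M21 transcripts on GRCm38, were chosen because each holds an unbroken run shared by a pair of relatives (for the Rab5 genes, by Rab5b and Rab5c), and capitals mark the positions at which the relatives shown are not all alike. In the Rab5 family 17 of the 60 positions differ among the 3 genes, Rab5a (chr17:53479234-53507680, plus strand), Rab5b (chr10:128677175-128696264, minus strand) and Rab5c (chr11:100715009-100738215, minus strand).
Rab5a: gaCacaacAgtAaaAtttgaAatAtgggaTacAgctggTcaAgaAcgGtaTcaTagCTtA
Rab5b: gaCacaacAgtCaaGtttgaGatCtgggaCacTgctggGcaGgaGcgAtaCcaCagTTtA
Rab5c: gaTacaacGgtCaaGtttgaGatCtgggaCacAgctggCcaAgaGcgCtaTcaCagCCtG

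The Rab1 genes (chr11:20201432-20226856, plus strand, and chr19:5099205-5107072, minus strand) differ at 7 of 60 positions and share an unbroken run of 38 bases, the longest among the closest pairs. The Rab4 genes (chr8:123805985-123835287, plus strand, and chr7:27168424-27178896, minus strand) differ at 13 of 60 positions. Over the whole coding sequence the closest pair was Rab8a and Rab8b, identical at 78.3% of positions of the longer one.
Rab1: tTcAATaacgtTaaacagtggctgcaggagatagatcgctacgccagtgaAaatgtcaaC
Rab1b: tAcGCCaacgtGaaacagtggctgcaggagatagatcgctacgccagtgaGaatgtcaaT
Rab4a: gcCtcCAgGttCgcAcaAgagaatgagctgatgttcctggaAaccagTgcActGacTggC
Rab4b: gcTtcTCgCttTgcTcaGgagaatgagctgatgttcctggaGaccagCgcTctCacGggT

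Within the printed stretches the coding relatives differ at single and at adjacent bases. Over the whole coding sequence Rab1 and Rab1b were identical at 76.1% of positions of the longer one, and Rab4a and Rab4b at 73.2%. Some pseudogenes are far closer. Rab7-ps1 matches Rab7 at 98.39% of 620 aligned bases and held 11.4 to 32.6 normalised reads per library. Rab11b-ps2 matches Rab11b at 99.85% of 654 aligned bases and held 1.66 to 36.4. The sources used here do not say how reads that fit several places were counted, so the values of such genes are uncertain.

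A library held between 6767108 and 12561174 reads of listed genes, and all values above 0 were whole multiples of 1 read within 0.01 read. Of 18 neutrophil markers, 15 to 18 reached 10 normalised reads in each library, although Ly6g itself, a protein used in the sort, stood at 5.82 or below in control 12 and in LOY 3, 4 and 10. Ddx3y, a gene of the Y chromosome, was at 399.7 to 1341 in control and at 0 to 51.6 in LOY. Summed markers of heart muscle cells ran from 4290 to 8605 in control and from 4850 to 68111 in LOY. All 17 are in the table. Limma called 0 of the 16 tested (0.0288% of all genes tested) and DESeq2 called 5 (3.12% of all). Of the 16, 6 had an unadjusted limma p under 0.05 (4.37% of all), all of them higher in LOY. Summed endothelial markers ran from 1064 to 4079 and from 2929 to 6575, and summed fibroblast markers from 2972 to 10539 and from 5835 to 16580. Positive limma log2 fold changes were found for 8 of 9 endothelial markers tested (median 1.86) and 6 of 6 fibroblast markers (median 1.88). Limma called 0 of either list. Its unadjusted p was under 0.05 for 3 endothelial markers and 1 fibroblast marker (4.37% of all genes tested), each higher in LOY. Limma log2 fold changes were mostly negative for markers of B cells (6 of 7 tested, median -1.15) and of red cells and platelets (4 of 5, median -2.48). The same held for markers of macrophages (7 of 9, median -0.14) and neutrophils (11 of 16, median -0.16). With the heart muscle marker level as a covariate, limma called 0 of 33 Rab genes and 0 of all 6951 genes, and the smallest adjusted p of a Rab gene was 0.649. In that fit 4 Rab genes had an unadjusted limma p under 0.05, beside 459 of the 6951 genes. Among the 4 were Rab2a (log2 fold change -1.63, unadjusted limma p 0.0197) and Rab24 (-2.12, unadjusted limma p 0.0214).

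Rab genes were read more evenly than most genes of the table. Of the 42, 17 (40.5%) reached 10 normalised reads in all 12 libraries, against 20.6% of the 11911 genes. A further 8 did so in 10 or 11 libraries, 8 in 6 to 9, 3 in 3 to 5 and 6 in 1 or 2. Among tested genes, the median SD of the log2 level over the 12 libraries was 1.72 for Rab genes and 2.42 for all. A library held 25 to 35 Rab genes at 10 or more in the control group (31.2 ± 3.71, SD, n = 6) and 26 to 33 in LOY (30.0 ± 3.29, SD, n = 6). Summed over the family, the level was 28201 ± 3104 normalised reads in control and 25835 ± 1806 in LOY (SD, n = 6 each), or 0.257% to 0.440% of a library's reads.

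**Figure D1:**
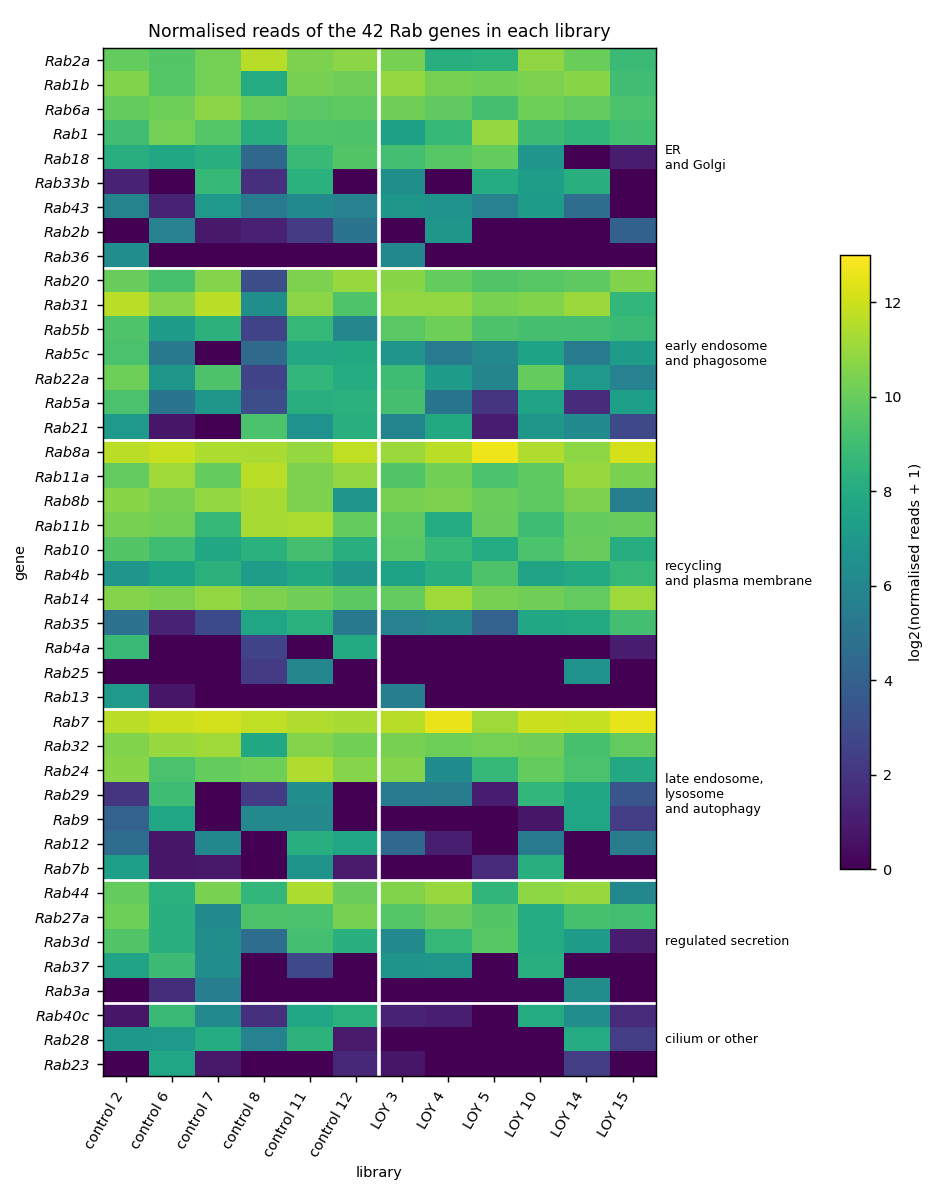
Log2(normalised reads + 1) of the 42 Rab genes (rows, by role) in the 12 libraries (columns, control and then LOY), with colour for the level. Rows such as Rab7 and Rab8a are even across the columns, while Rab33b, Rab37 and Rab28 alternate between high levels and values at or near 0.

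**Figure D2:**
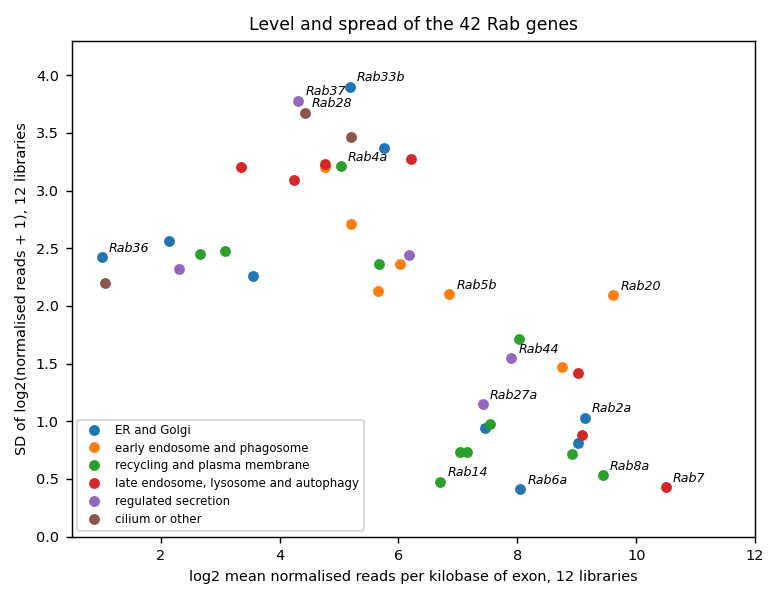
Each point is 1 of the 42 Rab genes, placed by its mean level per kilobase of exon over the 12 libraries (x axis, log2 scale) and by the SD of its log2 level over those libraries (y axis), coloured by role. Rab7, with the highest level, had an SD of 0.43, and Rab33b had the largest SD of the tested genes, 3.90.

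Levels of different genes were compared per kilobase of exon. Rab7 was highest at 1445 normalised reads per kilobase, followed by Rab20 at 780.2, Rab8a at 691, Rab2a at 561 and Rab32 at 542. These 5 genes made up 47.6% of the summed level per kilobase of the 42. By role, the genes of the late endosome, lysosome and autophagy held 31.2% of that sum those of recycling and the plasma membrane 24.9%, those of the endoplasmic reticulum and Golgi 19.3% and those of the early endosome and phagosome 17.9%. The secretion genes held 6.00%. Without division by exon length Rab20 ranked 12th of the 42.

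The early secretory route is represented by 9 of 15 genes listed for the endoplasmic reticulum and Golgi, of which 7 were tested and 0 had an unadjusted limma p under 0.05. Their median log2 fold change, LOY against control, was -0.27, beside 0.0081 for all genes tested. Rab2a, which acts between the endoplasmic reticulum and the Golgi, ran from 729 to 3079 normalised reads in control (median 1313) and from 298 to 1804 in LOY (median 776). LOY 4 and LOY 5 were the lowest libraries and control 8 the highest, and the ranges overlapped. The log2 fold change of Rab2a was -0.98 (SE 0.52), with an unadjusted limma p of 0.0811 and an adjusted p of 0.997. Other fits of Rab2a gave -0.80 (DESeq2), -0.64 (limma array weights) and -1.63 (heart muscle marker covariate). Without control 8 and LOY 5 limma gave -0.52 (SE 0.51). Rab1b and Rab1, which drive transport into the Golgi, were read in all libraries, and Rab1b made up over 50% of the Rab1 level per kilobase in each of the 12. Rab6a, a Rab of Golgi membranes, was the steadiest tested member, with an SD of 0.41, and ran from 571 to 1707 over all libraries. Of its 3728 exon bases, 708 (19.0%) are shared with Mrpl48 on the opposite strand, and the library kit does not mark strand.

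Rab33b, a Golgi Rab that also binds the autophagy protein ATG16L1, was the least even. It was above 10 in control 7 (413) and control 11 (313) and at 2.53 or below in the other 4 control libraries. In LOY it lay between 87.2 and 296 in 4 libraries and at 0 in LOY 4 and LOY 15. Presence and absence thus cut across both genotypes, and the limma log2 fold change of 1.66 had an SE of 2.13. DESeq2 and edgeR put it at 0.14 and 0.11, and with single libraries left out limma gave 0.99 (without control 6 or control 12) to 2.73 (without control 7). Of the remaining genes of the route, Rab18 and Rab43 missed 10 in 2 libraries each, and Rab2b and Rab36 were too sparse to be tested.

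All 7 genes listed for the early endosome and phagosome were measured and tested, and their median log2 fold change was 0.31. Rab5b, 1 of 3 Rab5 genes that govern the fusion of early endosomes, ran from 5.07 to 696 in control (median 234) and from 456 to 1129.5 in LOY (median 619.9). All 6 LOY libraries were above 5 of the 6 control libraries, and control 2 alone reached into the LOY range. The mean was 272 ± 257 in control and 698 ± 242 in LOY (SD, n = 6 each). For Rab5b limma gave a log2 fold change of 2.35 (SE 0.99, 95% interval 0.22 to 4.48), with an unadjusted limma p of 0.0326 and an adjusted p of 0.997. Without control 8 and LOY 5, which had the lowest limma array weights of their groups, limma gave 1.47 (SE 0.66) with an adjusted p of 0.955.

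The other Rab5 genes stood as follows, with no test run of their difference from Rab5b. Rab5a ran from 7.60 to 608 in control (median 199.9) and from 2.10 to 564 in LOY (median 96.1). Rab5c ran from 0 to 609.8 in control (median 131) and from 38.9 to 182 in LOY (median 88.3). Both ranges overlapped widely, and limma gave log2 fold changes of -1.32 (SE 1.56) for Rab5a and 0.59 (SE 1.45) for Rab5c. The latter sign rests on control 7, where Rab5c was at 0: without that library it was -0.56, and DESeq2 and edgeR gave -0.96 and -0.97. As a share of the Rab5 level per kilobase, Rab5b made up 53.3% to 91.6% in LOY (median 69.1%) and 8.21% to 78.1% in control (median 33.7%), so that it was over 50% in 8 libraries, all 6 LOY libraries and control 6 and 7. This share repeats the reads already tested for each gene and was given no test.

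**Figure D3:**
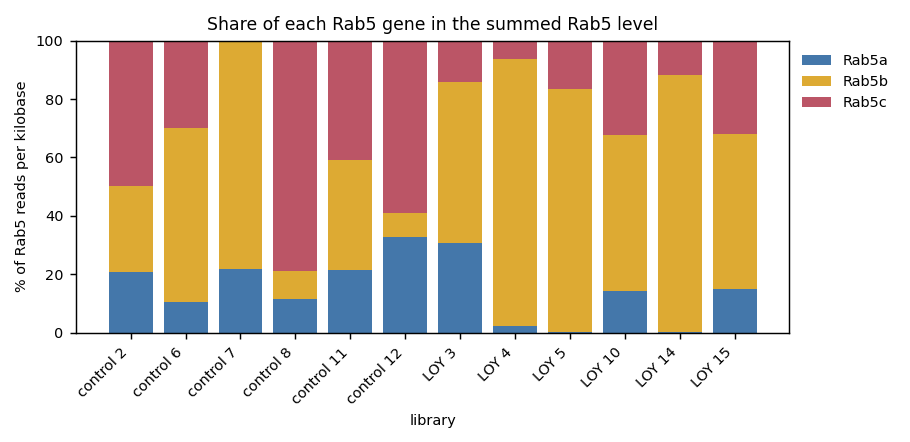
Share of the summed Rab5 level per kilobase (percent, y axis) that came from Rab5a, Rab5b and Rab5c in each of the 12 libraries (x axis, control and then LOY). Rab5b holds over 50% in every LOY library and in control 6 and 7.

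Rab20, found on phagosomes as they mature, stood second per kilobase. Of its 1392 exon bases, 356 (25.6%) are shared with E230013L22Rik on the opposite strand. The library kit does not mark strand, so reads of these genes cannot be told apart there. Rab20 ran from 7.60 to 2052 in control (median 1179) and from 706 to 1649 in LOY (median 931). The value of 7.60 was that of control 8 and the other 11 libraries were all at 595 or above. Its log2 fold change was 0.96 (SE 1.07), but -0.23 without control 8, -0.018 by DESeq2 and -0.036 by edgeR. Rab31, Rab22a and Rab21, which act in endosomal sorting, had limma log2 fold changes of 0.31, -0.14 and -0.21. Control 8 was the lowest of the 12 libraries for 4 of the 7 genes of the early endosome and phagosome, Rab20, Rab31, Rab5b and Rab22a.

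Recycling and traffic to the plasma membrane are served by 11 measured genes of 13 listed, 8 of them tested, with a median log2 fold change of 0.086 and 0 with an unadjusted limma p under 0.05. Rab8a, which directs vesicles to the cell surface, ran from 1954 to 3810.3 in control (median 2959) and from 1767 to 6629.9 in LOY (median 3009.7). The ranges overlapped and LOY 5 was the highest. Its log2 fold change was 0.13 (SE 0.32, 95% interval -0.56 to 0.82), and -0.080 without LOY 5 and -0.0081 with limma array weights. Together with Rab7, Rab14 and Rab6a, Rab8a was 1 of 4 Rab genes (12.1% of those tested, against a background of 5.68%) whose 95% limma interval lay within 1 log2 unit of 0.

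The recycling endosome genes Rab11a and Rab11b both had negative log2 fold changes without passing the test. Rab11a ran from 949 to 3179 in control (median 1626) and from 630.0 to 2049 in LOY (median 1039.8). Rab11b ran from 399 to 2674 in control (median 1239) and from 254.8 to 1019.6 in LOY (median 925). For each gene at least 2 libraries of either group lay within the range of the other, and Rab11a supplied over 50% of the Rab11 level per kilobase in all 12. The log2 fold changes were -0.62 (SE 0.40) for Rab11a and -0.86 (SE 0.51) for Rab11b, each with an adjusted limma p of 0.997. Rab35, a Rab of recycling to the cell surface and of cytokinesis, ran from 1.497 to 317 in control (median 32.6) and from 15.8 to 546 in LOY (median 142). Its ranges overlapped, and its log2 fold change was 1.73 (SE 1.39). Among the other genes of this route, Rab8b, Rab10 and Rab14 reached 10 in all libraries with limma log2 fold changes of -0.63, 0.30 and 0.039. Rab13 and Rab25, known from epithelial cells, reached 10 in 2 libraries each.

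Rab4a and Rab4b both serve fast recycling from early endosomes, and Rab4a was the only Rab gene that DESeq2 called. It held 435.8 normalised reads in control 2, 245.3 in control 12, 5.07 in control 8 and 0 in the other 3 control libraries. In LOY it was at 0 in 5 libraries and at 1.03 in LOY 15. The recovered reads were 870 over the control group and 1 over the LOY group, a ratio of 764 after scaling (95% Clopper-Pearson interval 137 to 30208, counting error only). DESeq2 gave a log2 fold change of -9.44 with an adjusted p of 0.0185, a value that is no bound on the fold. In the authors' deposited table the log2 fold change is -9.44 and the adjusted p is 0.0185, values equal to those of DESeq2 here. Both come from the same reads, so the deposited values are no second test of Rab4a.

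The DESeq2 call of Rab4a rested on which libraries entered. Without LOY 15 the adjusted DESeq2 p was 1.2e-11, and without control 8 it was 0.0352. Without control 2 or without control 12 DESeq2 gave no p for the gene. It reached 10 normalised reads in only 2 libraries and so missed the filter of the main limma test. Limma with no filter gave a log2 fold change of -3.05 (SE 1.59) and an adjusted p of 0.916, and with a mean of at least 50 the adjusted limma p was 0.994. Rab4b was present in all 12 libraries, from 109 to 331 in control (median 172) and from 188 to 651 in LOY (median 265), and made up over 50% of the Rab4 level per kilobase in the 10 libraries other than control 2 and control 12. The limma log2 fold change of Rab4b was 0.74 (SE 0.65). Of its 1970 exon bases, 1280 (65.0%) are shared with the protein-coding gene Gm21983 on the same strand, so the level of Rab4b and its share of the Rab4 genes are uncertain.

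Of 11 genes listed for the late endosome, lysosome and autophagy, 7 were measured and 5 tested, with a median log2 fold change of -0.22. Rab7, which brings late endosomes and phagosomes to lysosomes, ran from 2540.5 to 4392 in control (median 3313) and from 2298 to 6045 in LOY (median 3838). No library was without it, and the LOY range enclosed the control range. The log2 fold change was 0.23 (SE 0.27, 95% interval -0.34 to 0.81). Rab7b, a relative of Rab7, was at 1.98 or below in 9 libraries and at 160.2 in control 2, 104 in control 11 and 295 in LOY 10. Rab32, a Rab of lysosome-related organelles, ran from 223 to 2296 in control (median 1525) and from 601 to 1295 in LOY (median 1138). Control 8 held the lowest value, while the other 5 control libraries stood at 1222 or above, and the log2 fold change was -0.22 (SE 0.51). Without control 8 it was -0.70, and without control 8 and LOY 5 limma gave -0.76 (SE 0.31) with an adjusted p of 0.955.

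Rab24, linked to autophagy, was the late-route gene of smallest p. It ran from 617 to 2841 in control (median 1359.6) and from 80.3 to 1520.4 in LOY (median 507). LOY 3 and LOY 10 lay within the control range and LOY 4 was the lowest of all. The means were 1462 ± 777 in control and 634 ± 533 in LOY (SD, n = 6 each). For Rab24 the log2 fold change was -1.59 (SE 0.65, 95% interval -2.98 to -0.20), with an unadjusted limma p of 0.0278 and an adjusted p of 0.997. Rab24 (chr13:55319743-55321946, minus strand) shares 1258 of its 2015 exon bases (62.4%) with Prelid1 on the opposite strand, and the library kit does not mark strand, so reads of these genes cannot be told apart there. Prelid1 itself ran from 866 to 3200.3 in control and from 561 to 2711 in LOY. Of the remaining late-route genes, Rab29 and Rab12 were sparser, each at 10 or more in 7 libraries, and their log2 fold changes were 2.03 and -1.82, with SEs of 1.81 and 1.72. Rab9, at 10 or more in 5 libraries, was not tested.

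The secretion list has 5 measured genes of 9 and 4 tested, with a median log2 fold change of -0.39 and 0 with an unadjusted limma p under 0.05. Rab27a, which docks azurophilic granules at the plasma membrane, ran from 70.4 to 1291 in control (median 635) and from 251 to 1022 in LOY (median 660.2). The LOY values all fell inside the control range. The means were 674 ± 464 in control and 649 ± 258 in LOY (SD, n = 6 each). Limma put the log2 fold change at 0.31 (SE 0.67, 95% interval -1.13 to 1.75), and DESeq2 gave -0.054.

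Rab44, a large Rab of granulocytes and mast cells, was the highest of the secretion genes per kilobase, at 239. It ran from 318 to 2719.8 in control (median 1006) and from 66.9 to 2060.1 in LOY (median 1614). LOY 15 held the lowest value, and the log2 fold change of -0.12 (SE 0.83) became 0.59 without it. Rab3d, found on secretory granules, ran from 25.3 to 708 in control (median 304) and from 1.03 to 799 in LOY (median 197). LOY 15 was again lowest, and the log2 fold change was -0.94 (SE 1.39) with all libraries and 0.21 without it. Rab37, also of secretory granules, was at 6.25 or below in 3 control libraries and at 0 in 3 LOY libraries, and at 82.8 to 482 in the other 6, and its log2 fold change was -0.66 (SE 2.10). Rab3a, best known from synaptic vesicles, reached 10 only in control 7 (45.6) and LOY 14 (85.1).

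The cilium and other group has 3 measured genes of 5, all sparse. Rab28, a Rab of the cilium and photoreceptors, ran from 0.925 to 339 in control (median 126) and from 0 to 254 in LOY (median 0). It was at 53.2 or more in 5 control libraries and at 4.12 or below in 5 LOY libraries, with control 12 low and LOY 14 high against their groups. Limma put the log2 fold change of Rab28 at -4.46 (SE 1.69, 95% interval -8.08 to -0.85), with an unadjusted limma p of 0.0191 and an adjusted p of 0.997. Without control 8 and LOY 5 limma put Rab28 at -4.20 (SE 1.97), with an unadjusted limma p of 0.0541 and an adjusted p of 0.955. Its mean level was 151 ± 127 in control and 43.1 ± 104 in LOY (SD, n = 6 each), and DESeq2 gave a log2 fold change of -1.81 with an unadjusted p of 0.341. Rab40c, which carries a SOCS box and works with a ubiquitin ligase, was at 73.7 or more in 4 control libraries and at 80.9 or more in 2 LOY libraries, with the rest at 2.53 or below. For Rab40c limma gave a log2 fold change of -2.53 (SE 1.86) and an adjusted p of 0.997. Rab23, a regulator of Hedgehog signalling in cilia, reached 10 in 1 library, control 6 (199).

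**Figure D4:**
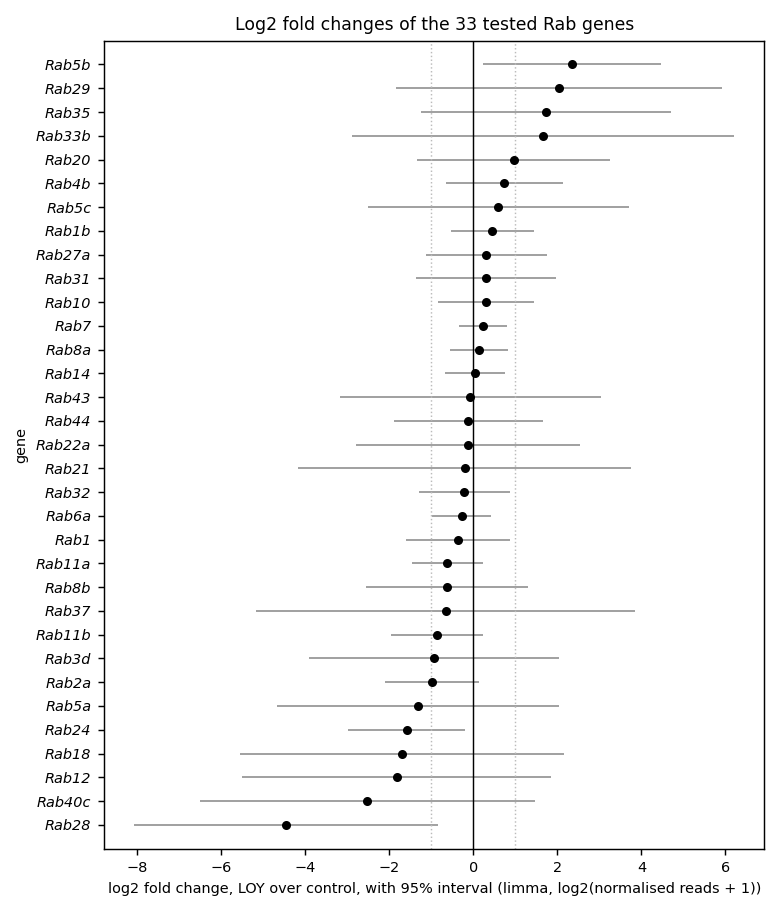
Limma log2 fold change, LOY against control, of the 33 tested Rab genes (rows, in order of the fold change), with 95% intervals as bars and dotted lines 1 log2 unit either side of 0. The intervals of Rab28, Rab24 and Rab5b exclude 0 before adjustment, and the interval is within 1 log2 unit of 0 for Rab7, Rab8a, Rab14 and Rab6a only.

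**Figure D5:**
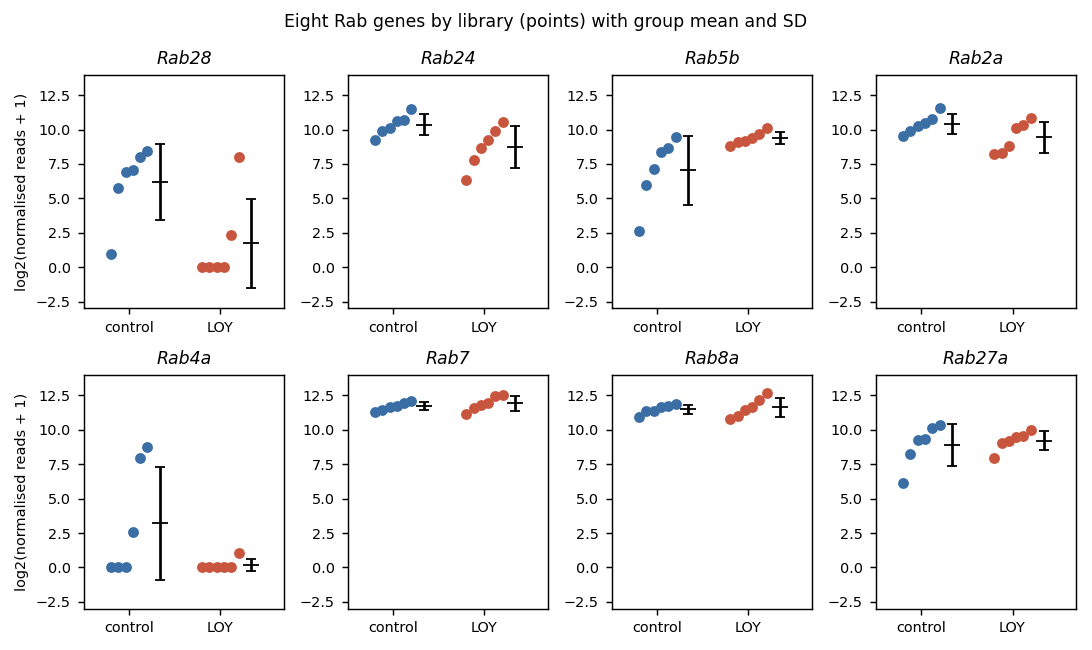
Log2(normalised reads + 1) (y axis) of 8 Rab genes in the 6 control and 6 LOY libraries, with 1 point per library in order of level and bars for the group mean and SD on that scale. In each of the 8 panels the control and LOY ranges overlap, and Rab4a rises above 10 normalised reads in 2 control libraries only.

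Over the 33 tested members, 19 log2 fold changes were negative (57.6%, against 49.6% of all genes tested) and 14 positive, with a median of -0.14. That balance shifted with some single libraries. Without LOY 15, 13 were negative (median 0.14), and without control 11, 15 were (median 0.021). Without LOY 5 the number was 16 (median 0.057), and without control 2 it was also 16 (median 0.040). Without any 1 of the other libraries 17 to 20 were negative, and by edgeR 20 of 33 were. For 0 of the 33 tested members did the control and LOY ranges fail to overlap, where 14 of 6951 genes (0.201%) had separate ranges. By edgeR 0 of 33 were called and 0 had an unadjusted p under 0.05, beside 1.84% of the genes it tested. Among libraries, control 8 was the lowest of the 12 for 8 of the 33 members and had 9 of them under 10 normalised reads, and LOY 15 had 8 under 10. LOY 5 had 7 members under 10, and LOY 4, the library of fewest reads, had 4. Of all genes in the table, 51.8% reached 10 normalised reads in control 8, 48.3% in LOY 5, 55.9% in LOY 15 and 54.2% in LOY 4.

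The proteins that act on Rabs were read off the same limma fit from 4 lists, of which 107 of 134 genes are in the table and 72 were tested. None passed the adjusted threshold, with 0 of 72 called by limma (0.0288% of all genes tested were), and 2 had an unadjusted p under 0.05 (4.37% of all). DESeq2 called 1 of 92 (3.12% of all). Of the genes that escort and prenylate Rabs 6 were tested and 0 had an unadjusted p under 0.05, and among them were Chm (log2 fold change -1.67, SE 1.25), which presents Rabs for prenylation, and Rabac1 (0.29, SE 0.35).

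Of 26 exchange factors tested, 1 had an unadjusted p under 0.05. Dennd1c, a DENN domain protein, ran from 1516 to 2687 in control (median 2525) and from 912 to 2163 in LOY (median 1263). Only LOY 5 and LOY 14 lay within the control range. The log2 fold change was -0.70 (SE 0.30), with an unadjusted limma p of 0.0353 and an adjusted p of 0.997. Rabgef1, which activates Rab5, had a log2 fold change of -2.28 (SE 1.13) with 3.09 normalised reads in LOY 15, and Hps1, part of the exchange factor of Rab32, had -3.06 (SE 2.08).

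Of 15 GTPase-activating proteins tested, 1 had an unadjusted p under 0.05. Tbc1d15, which acts on Rab7, ran from 1486 to 4903 in control (median 2424) and from 426 to 1855 in LOY (median 1384). LOY 4 and LOY 5 lay within the control range and the other 4 LOY libraries below it. The log2 fold change was -1.15 (SE 0.41), with an unadjusted limma p of 0.0138 and an adjusted p of 0.997. Tbc1d20, which acts on Rab1, and Rabgap1 had log2 fold changes of 3.08 (SE 1.60) and 2.82 (SE 1.52). Tbc1d25, the gene that DESeq2 called (adjusted p = 0.0135), held 303 normalised reads in LOY 5 and 273 in LOY 10 and was at 2.81 or below in the other 10 libraries, so limma did not test it. Of 25 effectors tested, 0 had an unadjusted p under 0.05, and those of smallest p were Plekhm2 (-2.95, SE 1.69), which links lysosomes to kinesin, Plekhm1 (2.22, SE 1.73), which joins Rab7 to lysosome fusion, and the Rab11 effector Rab11fip4 (-1.79, SE 1.47).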

How the data were processed

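The authors deposited 1 table of 11911 genes in 12 libraries, made from cDNA amplified with the SMART-Seq v4 kit. Per the file headers and the values, the signal columns are read counts that the authors scaled by a factor for each library. Its log2 fold changes and p-values are those of the authors' comparison, and the sources used here do not name its tool. For the Rab genes its log2 fold changes equal those of DESeq2 on the recovered reads, and 303 genes were called in each. Reads were handled with STAR 2.5.2b, Trimmomatic 0.36, bcl2fastq 2.17 and, from Subread 1.5.2, featureCounts, and the builds are named as GRCm38 and mm10, per the submitters' processing notes. Dividing by the smallest step gave whole reads for 100% of values within 0.01 read. The Clopper-Pearson interval covers counting error only, since the kit carries no molecular identifiers, while limma intervals cover the spread between libraries.

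Groups came from the genotype label. The main test was limma 3.58.1 (R 4.3.3) with robust empirical Bayes and a trend on the log2 of normalised reads + 1, for genes at 10 or more in at least 6 libraries. P-values were adjusted by Benjamini-Hochberg over every gene tested and called under 0.05. Fold changes use this log2 scale, and for sparse genes this value can be larger or smaller than the ratio of mean reads. The fits were tested on simulated data. Alternatives were DESeq2 1.42.0 and edgeR 4.0.16 on the recovered reads, TMM and quantile scaling, pseudocounts of 0.5 and 5, no filter, a mean of at least 50, array weights, a heart muscle marker covariate and each library left out. The fit without control 8 and LOY 5 and the DESeq2 fits without single libraries holding Rab4a were added after the data were seen.

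Values are given for members called by limma or DESeq2, the 8 tested members of smallest limma p, the 5 of highest level per kilobase, the secretion genes, the Rab5, Rab7 and Rab11 genes and the 3 tested members of largest SD, and for the 3 tested genes of smallest p of each regulator list, except 1 gene that is not reported here. Members beyond this rule are given as ranges or single values. The members, lists and rule were chosen with earlier results of these data known. Exon lengths, coordinates and sequences are from GENCODE M21 on GRCm38, where Rab1a is named Rab1.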

Additional observations from a re-analysis of the deposited data

Results flagged for a closer look

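In 8 of 44 groups of 6 libraries, 1 library of a named Rab gene stood apart from the others by Dixon's gap test at the 95% level, which chance does in about 1 group in 20 of normally distributed values. The test ran on log2(normalised reads + 1), where many values were 0. A group with 5 zeros is always flagged whatever its other value, as for Rab4a in LOY and Rab3a in LOY. The 44 groups are 22 genes in 2 genotypes and the libraries are shared between genes, so the flags are not independent.

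Low libraries account for 3 of the 8. Rab20 was at 7.60 normalised reads in control 8 while the other control libraries held 595 to 2052. Rab32 was at 223 in control 8 and at 1222 to 2296 in the other control libraries. Rab28 was at 0.925 in control 12 and at 53.2 to 339 in the other control libraries.

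High libraries account for the rest. Rab28 reached 254 in LOY 14 against 0 to 4.12 in the other LOY libraries. Rab3a reached 45.6 in control 7 against 0 to 2.25, and 85.1 in LOY 14, where the other LOY libraries were at 0. Rab7b reached 295 in LOY 10 against 0 to 1.98. Rab4a was at 1.03 in LOY 15, which is 1 read, and at 0 in the other LOY libraries.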

How the results depend on the processing

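Across all genes limma called 2, quantile scaling 1, and no filter, a mean of at least 50, the heart muscle marker covariate, edgeR, and the fit without control 8 and LOY 5 each 0, while DESeq2 called 303. Leaving out 1 library gave 0 to 3. Of Rab genes 0 were called under these settings except DESeq2, which called 1, and of regulators and effectors 0 except DESeq2, which called 1. The mean number of Rab genes detected per control library was 31.2, 36 above 0 and 26.2 at 100 or more, and per LOY library 30.0, 33 above 0 and 25 at 100 or more.

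Of 19 named members tested, 12 kept their direction under all 22 alternatives, as did 394 of 418 values. Those counts include the fits with no filter and with a mean of at least 50. Both use the same log2 values as the main test, so the direction of a gene could not differ there. The reversed log2 fold changes were -0.018 (DESeq2) and -0.036 (edgeR) for Rab20, -0.054 by both for Rab27a, -0.96 (DESeq2), -0.97 (edgeR) and -0.016 (covariate) for Rab5c, 0.20 (DESeq2), 0.17 (edgeR) and 0.00042 (array weights) for Rab44, 0.027 (covariate) for Rab3d and -0.0081 (array weights) for Rab8a. Direction kept did not mean size kept: Rab33b went from 1.66 to 0.11 (edgeR), Rab5a from -1.32 to -0.51 (DESeq2) and -3.66 (covariate), Rab40c from -2.53 to -5.34, Rab35 from 1.73 to 0.52 and Rab7 from 0.23 to 0.0033 (covariate for the last 3). With 1 library left out the range was -0.23 to 1.35 for Rab20 (lowest without control 8), -0.24 to 0.60 for Rab27a (lowest without control 7), -1.56 to 0.26 for Rab37 (highest without control 6, and 0.066 without LOY 5, 14 or 15), -1.54 to 0.21 for Rab3d (highest without LOY 15), -0.41 to 0.59 for Rab44 (highest without LOY 15, and above 0 also without LOY 5 or control 11), -0.56 to 1.29 for Rab5c (lowest without control 7) and -0.080 to 0.30 for Rab8a (lowest without LOY 5). The cause was not tested. No paired analysis was possible because the groups share no replicate number. With libraries of 800 cells, 9 of 42 Rab genes were too sparse to test.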
